A study of Mus musculus with 8 samples.

Results

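The NuRD (nucleosome remodelling and deacetylase) complex was followed through the transcripts of its subunits while mouse embryonic stem (ES) cells passed into epiblast-like aggregates (ELA). The 12 genes Chd4, Hdac1, Hdac2, Mta1, Mta2, Mta3, Mbd2, Mbd3, Gatad2a, Gatad2b, Rbbp4 and Rbbp7 were looked for by symbol. Of these, 7 were among the 3160 genes of the table: Chd4, Hdac2, Mta2, Mbd3, Gatad2a, Gatad2b and Rbbp4. The other 5 (Hdac1, Mta1, Mta3, Mbd2 and Rbbp7) were not analysed here. All samples came from E14Tg2A, a mouse ES line grown on gelatin-coated dishes. The cells were taken in serum and LIF (ES, 0 DIV, days in vitro) or as floating aggregates in a serum-free defined medium without LIF (ELA, 2 DIV), and all were treated with cycloheximide, which stalls ribosomes, before lysis. Each stage gave RNA of the cleared lysate, from which nuclei and membrane fragments had been spun out (input, called total RNA here), and RNA pulled down through the endogenous ribosomal protein Rpl10a (Rpl10a-IP), with 2 libraries in each of the 4 groups. The study's methods state that experiments were done in duplicate, but not whether the cultures were separate, so p-values measure the spread between these libraries, which may be technical.

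NuRD joins an ATP-driven nucleosome remodeller to histone deacetylases in one particle. Chd4 is the remodelling motor. Hdac1 and Hdac2 remove acetyl groups, the Mta proteins form the scaffold that holds and activates the deacetylases, and Rbbp4 and Rbbp7 are histone chaperones. Mbd2 or Mbd3 and a Gatad2 protein link the deacetylase module to Chd4. In ES cells the complex is known for damping naive pluripotency genes, and cells without Mbd3 are known to be slow in leaving self-renewal.

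The depth of the libraries differed between fractions and, in the inputs, between stages. The Rpl10a-IP libraries held between 16076207 and 23483388 reads over the table. The ES inputs held 5380139 and 3898414, and the ELA inputs 159587 and 410192. The lowest was ELA input 1, which the study's methods left out. Input depth and stage cannot be told apart. As a check of the labels, 15 naive genes were listed that are known to be restrained by NuRD or to be lower in the epiblast. Of these, 6 were in the table. All 6 fell in total RNA from ES to ELA by limma at an adjusted p of 0.05. Nanog, for example, had a log2 change of −2.90 ± 0.12 SE, with 10 and 26 reads in the ELA inputs. The direction of these genes was part of their choice and is no result. Dnmt3b, an epiblast marker, went from a mean of 3125 to 19185 normalised counts in the inputs, and the neural marker Nes from 374 to 2132. Listed markers of primitive endoderm, mesoderm and blood were not in the table, so these cells were not checked. The part of such cells in the values given here was not tested. In bulk RNA, fewer cells of a type and less RNA per cell cannot be told apart.

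Annotated start sites are shown for the 4 subunits whose ribosome enrichment changed between stages, because the first bases of an mRNA are where the pyrimidine tract of highly growth-regulated messages lies. The sequences are from RefSeq (GRCm38.p6, the assembly of the mm10 build), read on the transcript's strand. The 10 bases before the start are in lower case, and the 12 bases from the start are in capitals.
Chd4, chr6:125095971-125095992, plus strand: cgacgggggcGTGGCCAATGGT
Chd4, second start, chr6:125096153-125096174, plus strand: gaggcgacgcCGGAGCCGGAGC
Mta2, chr19:8941910-8941931, plus strand: tgcggggtctTGCTCTCCGACC
Hdac2, chr10:36974534-36974555, plus strand: gcctacccctGCCGAGTGTCGC
Mbd3, chr10:80399520-80399541, minus strand: gtcagactggTCCTGCGAGCGC
The tract was searched on the transcript's strand as a C at the start followed by C or T at each of the next 4 bases. None of the 10 annotated starts of the 7 subunits held it. Of all 32851 starts 2.51% held it, so its absence among 10 is nothing particular. Of the 34 starts of ribosomal protein genes in the table, 4 held it. That these letters are not at the annotated base says only this, since starts may differ in these cells.

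Levels were compared between subunits per kilobase of the longest annotated transcript. For Gatad2b this is an incomplete model with 118 bases of 3′ end. For Hdac2 it has 915 coding bases in 3250 and may not be the main mRNA, which was not checked. In ES input, Chd4 was the most abundant of the 7 subunits, at 760 ± 17.4 normalised counts per kb (SD, n = 2). It was followed by Rbbp4 at 700 ± 7.03, Hdac2 at 516 ± 2.55 and Gatad2a at 435 ± 23. Mbd3 (389 ± 9.46), Mta2 (304 ± 18.8) and Gatad2b (301 ± 0.376) were the lowest, and the last pair did not differ beyond its spread. In ELA input Chd4 was again the highest, at 1054 ± 169 per kb, and Mbd3 (308 ± 74.1) came after Hdac2 and Rbbp4, its spread reaching Gatad2a at 257 ± 16.5. In ES Rpl10a-IP Rbbp4 (835 ± 11.4) lay ahead of Chd4 (779 ± 1.35), and Mbd3 (245 ± 7.72) was above Gatad2b (151 ± 5.95) alone. In ELA Rpl10a-IP Chd4 was at 1878 ± 3.80 per kb, ahead of Rbbp4 at 860 ± 10.1. Mbd3 was the lowest there, at 98.1 ± 10.3 per kb, beside Gatad2b at 112 ± 15.7, within their spread.

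**Figure D1:**
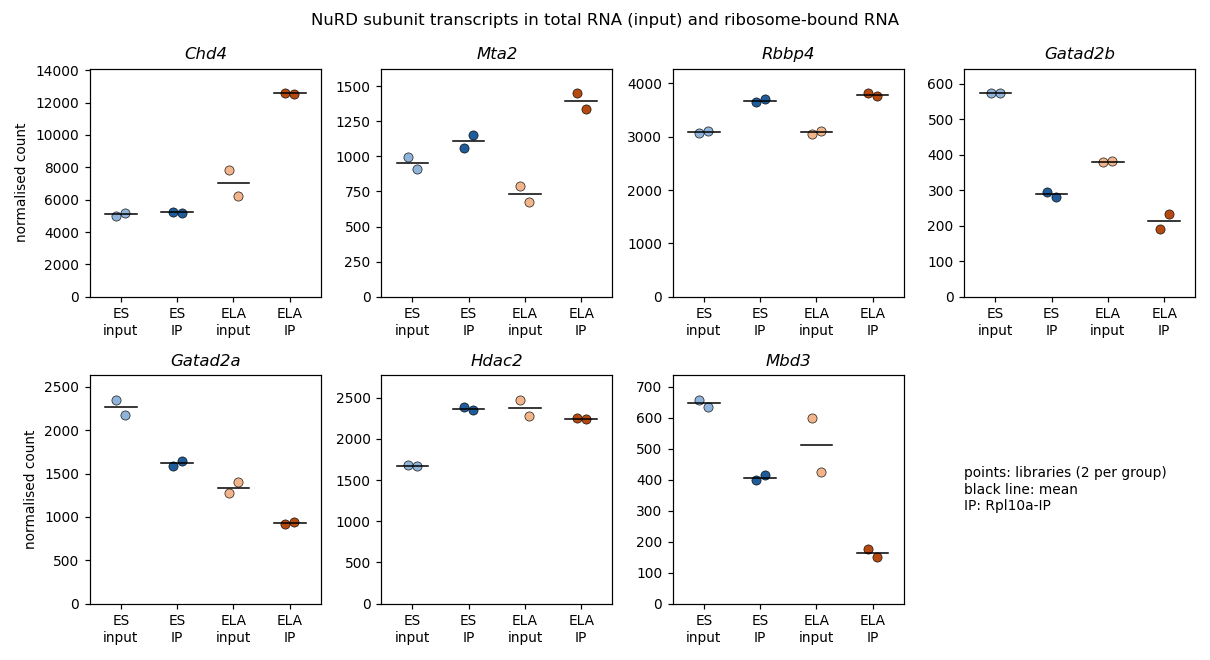
Normalised counts (vertical axes, starting at 0) of the 7 NuRD subunits in the 8 libraries. Points are libraries, 2 per group, and black lines are means; Chd4 in ELA Rpl10a-IP, at a mean of 12576, stands above its other 3 groups, while Mbd3 falls to a mean of 163 there.

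In ELA, Chd4 RNA was higher on ribosomes, and by less in total RNA, where the call depended on the processing. The gene lies at chr6:125095980-125130591 (mm10). In ES input its normalised counts were 5005 and 5170, and in ES Rpl10a-IP 5221 and 5208. In ELA input they were 7857 and 6254, and in ELA Rpl10a-IP 12594 and 12558. Both ELA Rpl10a-IP libraries lay above all 6 others, and the ELA inputs lay above both ES groups without overlap. The total RNA rose by 0.46 ± 0.10 on the log2 scale (SE; limma on log2(normalised count + 1), adjusted p = 0.000198). The ribosome-bound RNA rose by 1.27 ± 0.09 (limma adjusted p = 1.02e-46), a 2.41-fold difference. With all 8 libraries in that fit, the limma adjusted p was 3.30e-13. The total RNA value was 0.30 (limma adjusted p = 0.00835) without ELA input 1, and 0.16 (limma adjusted p = 0.132) after correction for transcript length and GC content.

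Hdac2, a catalytic subunit that several repressor complexes share (chr10:36974297-37001889), rose in total RNA, while its change on ribosomes was not called. Its normalised counts were 1683 and 1671 in ES input and 2474 and 2279 in ELA input. In Rpl10a-IP they were 2389 and 2346 in ES and 2250 and 2245 in ELA. The inputs separated by stage, whereas the ribosome-bound levels lay close together, ES above ELA. Total RNA rose by 0.50 ± 0.10 on the log2 scale (limma adjusted p = 7.02e-05). The ribosome-bound difference was −0.08, with a 95% interval from −0.25 to 0.10 (limma adjusted p = 0.434).

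Mta2, the scaffold subunit in the table (chr19:8941920-8952300), went opposite ways in the 2 fractions. ES input held 993 and 910 normalised counts and ELA input 788 and 678. ES Rpl10a-IP held 1062 and 1150 and ELA Rpl10a-IP 1451 and 1339. Every ELA input was below every ES input, and every ELA Rpl10a-IP was above every ES Rpl10a-IP. Total RNA fell by 0.38 ± 0.12 on the log2 scale (limma adjusted p = 0.00411), and ribosome-bound RNA rose by 0.33 ± 0.09 (limma adjusted p = 0.000585). The fall in total RNA was −0.31 and missed the threshold without ES input 1 (limma adjusted p = 0.0673).

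Mbd3, which bridges the deacetylase module and Chd4 (chr10:80392539-80399531), fell on ribosomes. Its normalised counts were 658 and 636 in ES input and 598 and 424 in ELA input. In Rpl10a-IP they were 398 and 416 in ES and 175 and 151 in ELA. The ELA Rpl10a-IP levels were the lowest of the 8, and ELA input 1 came close to the ES inputs. The ELA inputs rested on 22 reads (exact Poisson 95% interval 13.8 to 33.3, counting error only) and 40 reads (28.6 to 54.5). The ribosome-bound RNA fell by 1.32 ± 0.11 on the log2 scale (limma adjusted p = 2.38e-32; 1.54e-10 with all 8 libraries). Total RNA fell by 0.36 ± 0.14 (limma adjusted p = 0.0210), a call lost with libraries left out or with scaling by total reads. It was −0.34 without ES input 1 (limma adjusted p = 0.123) and −0.38 without ES input 2 (limma adjusted p = 0.0763). Without ELA input 2 it was −0.11 (limma adjusted p = 0.450), and without ELA input 1 it was −0.61 (limma adjusted p = 1.44e-05).

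Gatad2a and Gatad2b are paralogous linkers that are used in the alternative. Gatad2a fell in both fractions, and so did Gatad2b before correction for transcript length and GC content. Gatad2a (chr8:69907069-69996402) had 2348 and 2179 normalised counts in ES input and 1278 and 1399 in ELA input. In Rpl10a-IP it had 1586 and 1648 in ES and 918 and 938 in ELA. Each ELA group lay below its ES counterpart. The log2 changes were −0.76 ± 0.11 in total RNA (limma adjusted p = 1.71e-07) and −0.80 ± 0.09 in ribosome-bound RNA (limma adjusted p = 1.28e-17). Gatad2b (chr3:90293181-90363405) had 575 and 574 in ES input, 381 and 382 in ELA input, 297 and 281 in ES Rpl10a-IP, and 191 and 234 in ELA Rpl10a-IP. Its ELA inputs rested on 14 and 36 reads. The changes were −0.59 ± 0.13 in total RNA (limma adjusted p = 0.000150) and −0.45 ± 0.11 in ribosome-bound RNA (limma adjusted p = 9.67e-05). With the correction neither was called, at −0.18 in total RNA (limma adjusted p = 0.190) and 0.13 in ribosome-bound RNA (limma adjusted p = 0.238), and the length used for Gatad2b is that of an incomplete model.

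Rbbp4, the histone chaperone subunit (chr4:129307100-129335370), gave nearly the same level in both stages. Its normalised counts were 3063 and 3107 in ES input and 3045 and 3116 in ELA input. In Rpl10a-IP they were 3644 and 3715 in ES and 3820 and 3757 in ELA. The inputs of the stages overlapped. The change in total RNA was −0.00, with a 95% interval from −0.21 to 0.20, and the change in ribosome-bound RNA was 0.04, from −0.13 to 0.22, neither called by limma. Rbbp4 shares part of its locus with Sync, and non-coding genes overlap Chd4, Mta2 and Mbd3. Whether counting used the strand is not given in the sources used here, so reads of overlapping genes cannot be told apart.

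Over the subunits, 2 rose and 4 fell in total RNA, where limma called 70.2% of all genes (34.5% higher, 35.8% lower). In ribosome-bound RNA, 2 rose and 3 fell, where limma called 83.4% of all genes (41.1% higher, 42.3% lower). The shares called among the subunits are near these backgrounds. Directions varied among subunits. The ratio of the reads of a pair within one library needs no scaling of libraries, but it carries any trend with transcript length and GC content, and does not show which of the pair moved. Chd4 had 7.61 and 8.13 reads for each Mbd3 read in ES input, and 13.1 and 12.5 in ES Rpl10a-IP. It had 13.1 and 14.8 in ELA input, and 71.9 and 83.2 in ELA Rpl10a-IP. Chd4 over Hdac2 was 2.18 and 2.22 in ES Rpl10a-IP and 5.60 and 5.59 in ELA Rpl10a-IP, with 2.97, 3.09, 3.18 and 2.74 in the 4 inputs. Mta2 over Mbd3 was 2.67 and 2.76 in ES Rpl10a-IP and 8.29 and 8.87 in ELA Rpl10a-IP, with 1.51, 1.43, 1.32 and 1.60 in the inputs. Chd4 over Rbbp4 was 1.43 and 1.40 in ES Rpl10a-IP and 3.30 and 3.34 in ELA Rpl10a-IP, with 1.63, 1.66, 2.58 and 2.01 in the inputs. Gatad2a over Gatad2b lay between 3.36 and 5.87 in all 8 libraries. From ES to ELA on ribosomes, the fitted ratio changed 6.02-fold for Chd4 over Mbd3, 2.54-fold for Chd4 over Hdac2, 3.15-fold for Mta2 over Mbd3 and 2.34-fold for Chd4 over Rbbp4. After the length and GC correction described below these were 2.64-fold, 1.32-fold, 2.31-fold and 1.49-fold. The correction moved Gatad2a over Gatad2b the other way, from 0.782 to 0.328 times its ES value.

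Ribosome enrichment, the ratio of Rpl10a-IP to input for a gene relative to the other genes, was first compared within ES cells. Here 2 subunits were enriched on ribosomes (Hdac2 and Rbbp4) and 3 were depleted (Gatad2a, Gatad2b and Mbd3), where limma called 39.5% of all genes (19.5% higher, 20.0% lower). Pairing libraries by the number in their titles, the Hdac2 ratio was 1.41 ± 0.0113 (SD, n = 2) and that of Gatad2b 0.503 ± 0.0191, with Mbd3 at 0.630 ± 0.0351 and Gatad2a at 0.716 ± 0.0570. Gatad2b, at a log2 value of −0.99 ± 0.11 (limma adjusted p = 1.81e-16), ranked 3152 of 3160 from the highest. Chd4 had a ratio of 1.03 ± 0.0253 and was not called (log2 0.04, 95% interval −0.14 to 0.21). Mta2, at 1.17 ± 0.138, missed the threshold (log2 0.22, limma adjusted p = 0.0535), and was called in 8 of 19 other settings. It missed in each fit without 1 ES library, at 0.28 without ES input 1 (limma adjusted p = 0.0501), 0.15 without ES input 2 (0.285), 0.27 without ES Rpl10a-IP 1 (0.0965) and 0.16 without ES Rpl10a-IP 2 (0.377). With all 8 libraries the limma adjusted p was 0.164. It passed with the replicate number as a block (limma adjusted p = 0.0409), and with the length and GC correction, at 0.35 (limma adjusted p = 0.00109). Rbbp4, at 1.19 ± 0.00428, had a log2 value of 0.25 ± 0.09 (limma adjusted p = 0.0136). That call was lost with all 8 libraries (limma adjusted p = 0.0604), and in 3 of the fits without 1 ES library. These were ES input 1 (limma adjusted p = 0.0727), ES Rpl10a-IP 1 (limma adjusted p = 0.0691) and ES Rpl10a-IP 2 (limma adjusted p = 0.107).

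In ELA, Chd4, Mta2 and Rbbp4 were enriched on ribosomes and Gatad2a, Gatad2b and Mbd3 were depleted, where limma called 74.0% of all genes (36.8% higher, 37.2% lower). The ratios were 1.81 ± 0.286 for Chd4, 1.91 ± 0.0940 for Mta2 and 1.23 ± 0.0347 for Rbbp4. They were 0.694 ± 0.0341 for Gatad2a, 0.558 ± 0.0776 for Gatad2b and 0.324 ± 0.0447 for Mbd3. The Hdac2 ratio was 0.947 ± 0.0533, and its log2 value of −0.08 was not called (95% interval −0.29 to 0.13). On the log2 scale Mta2 was at 0.93 ± 0.12 (limma adjusted p = 8.01e-09), Chd4 at 0.84 ± 0.10 (limma adjusted p = 7.81e-09) and Mbd3 at −1.63 ± 0.14 (limma adjusted p = 1.57e-12). The value of Rbbp4, 0.30, was 0.19 and missed the threshold when libraries were scaled by total reads (limma adjusted p = 0.0909).

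**Figure D2:**
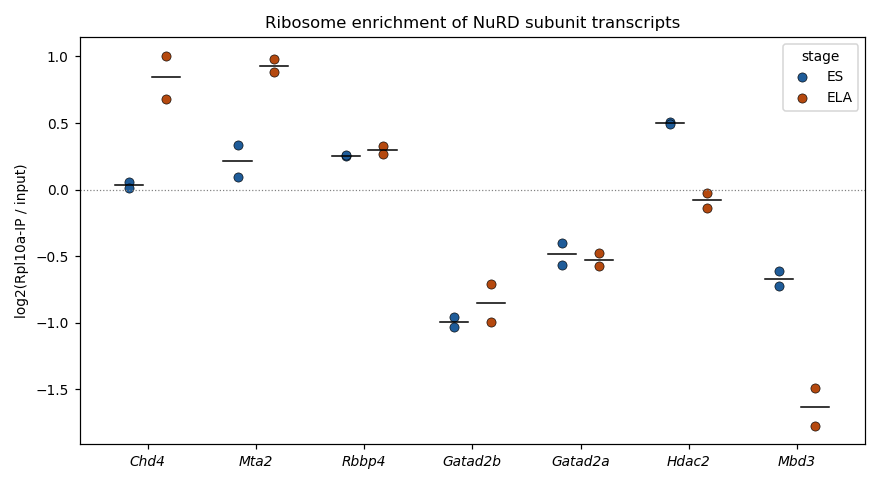
Ribosome enrichment, log2 of Rpl10a-IP over input (vertical axis), for each NuRD subunit in ES and ELA. Points are the 2 replicates, black lines their means, and the dotted line marks equal levels; the points of the stages are apart for Chd4, Mta2, Hdac2 and Mbd3 and overlap or lie close for Gatad2a, Gatad2b and Rbbp4.

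The difference in ribosome enrichment between ELA and ES was then tested as the interaction of stage and fraction. Of the 7 subunits, 2 rose (Chd4 and Mta2), 2 fell (Hdac2 and Mbd3) and 3 were not called, where limma called 56.2% of all genes (28.4% higher, 27.7% lower). Counts of calls near these shares say nothing particular to the subunits. Enrichment of Chd4 rose by 0.81 ± 0.15 on the log2 scale, or 1.75-fold (limma adjusted p = 2.19e-05). That of Mta2 rose by 0.71 ± 0.16, or 1.64-fold (limma adjusted p = 0.000381). That of Hdac2 fell by 0.58 ± 0.15, a 1.49-fold difference (limma adjusted p = 0.00123), and that of Mbd3 fell by 0.96 ± 0.20, a 1.94-fold difference (limma adjusted p = 0.000104). The change of Gatad2a was −0.04 (95% interval −0.35 to 0.27), of Gatad2b 0.14 (−0.23 to 0.52) and of Rbbp4 0.04 (−0.24 to 0.33). The median over the 7 subunits was 0.04 and the median over all genes 0.01, with 5% of genes below −1.20 and 5% above 1.06. All 7 subunits lay within that range, so these changes were not at the extremes of the table. Without ELA input 1 the values were 0.97 for Chd4, 0.82 for Mta2, −0.52 for Hdac2 and −0.71 for Mbd3. These 4 kept their direction in every fit without 1 library. The table holds only genes whose 2 ratios lie close together in each stage, so this is no support.

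**Figure D3:**
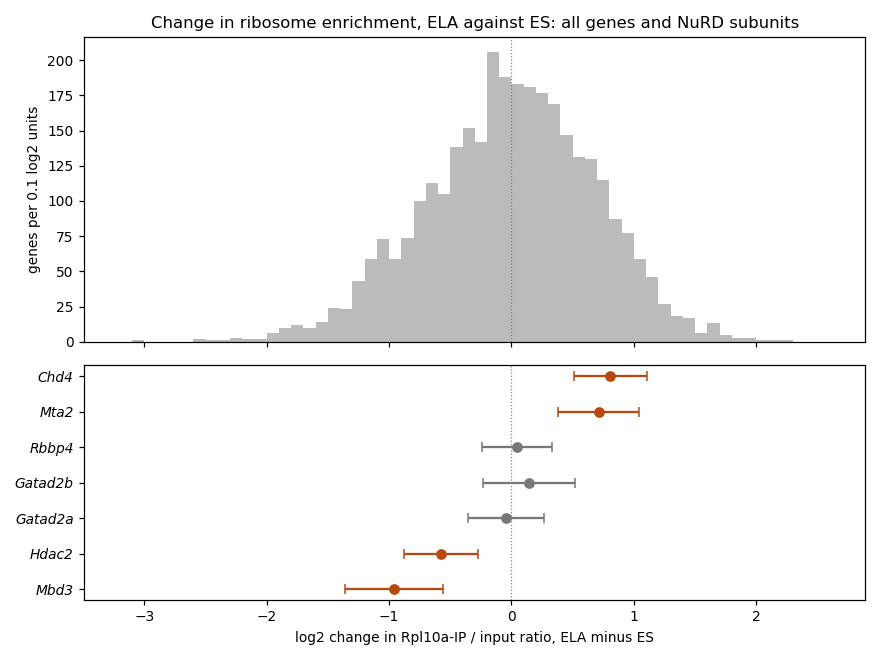
Change in ribosome enrichment from ES to ELA (log2, horizontal axis). The upper panel counts all 3160 genes per 0.1 log2 units, and the lower panel shows the 7 NuRD subunits with 95% intervals, in orange where limma called the change; Chd4 (0.81) and Mta2 (0.71) lie to the right and Hdac2 (−0.58) and Mbd3 (−0.96) to the left, inside the spread of all genes.

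Transcript length moved with the change in ribosome enrichment. Over the 2980 genes with a transcript length, which share the 8 libraries and are not independent, Pearson's r with log2 length was 0.48 and Spearman's rho 0.443. With GC content r was 0.12 and rho 0.149. Chd4 has the longest transcript of the 7 subunits (6697 bases, longer than 85.9% of genes) and Mbd3 the shortest (1662 bases, longer than 10.7%), with a GC content of 62.9% that exceeds 99.9% of genes. The correction of each library for length and GC content was planned with the replicate number as a block, and is given here without it, a setting chosen after seeing the data. With it the change of Chd4 was 0.38 (limma adjusted p = 0.0176), of Mta2 0.57 (limma adjusted p = 0.00791) and of Mbd3 −0.44 (limma adjusted p = 0.0352). Hdac2, at −0.24, was no longer called (limma adjusted p = 0.140), with the length of a model that may not be its main mRNA. Gatad2a, at −0.43, then passed the threshold (limma adjusted p = 0.0142). The correction also took the rise of Chd4 in ribosome-bound RNA to 0.53 (limma adjusted p = 1.05e-07). The ribosome-bound change became −1.48 for Gatad2a and −0.87 for Mbd3, and the change of Mta2 in total RNA −0.23, all still called. Enrichment of Mbd3 became −0.32 in ES and −0.76 in ELA and that of Chd4 in ELA 0.48, also still called, while Rbbp4 in ES, at 0.15, was not (limma adjusted p = 0.0767).

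**Figure D4:**
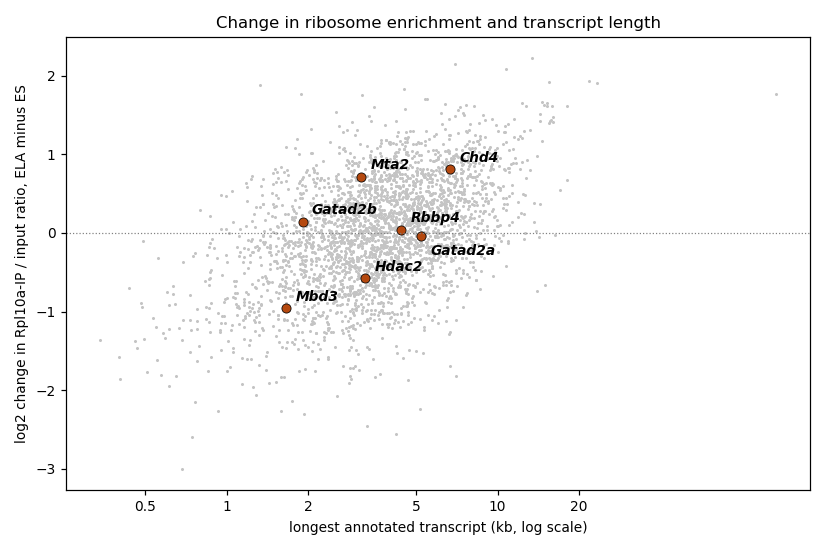
Change in ribosome enrichment from ES to ELA (log2, vertical axis) against the longest annotated transcript (kb, log axis). Grey points are genes with a transcript length and orange points the NuRD subunits; longer transcripts lie higher on the whole (Pearson's r 0.48 over 2980 genes), with Chd4 toward the upper right and Mbd3 toward the lower left.

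**Figure D5:**
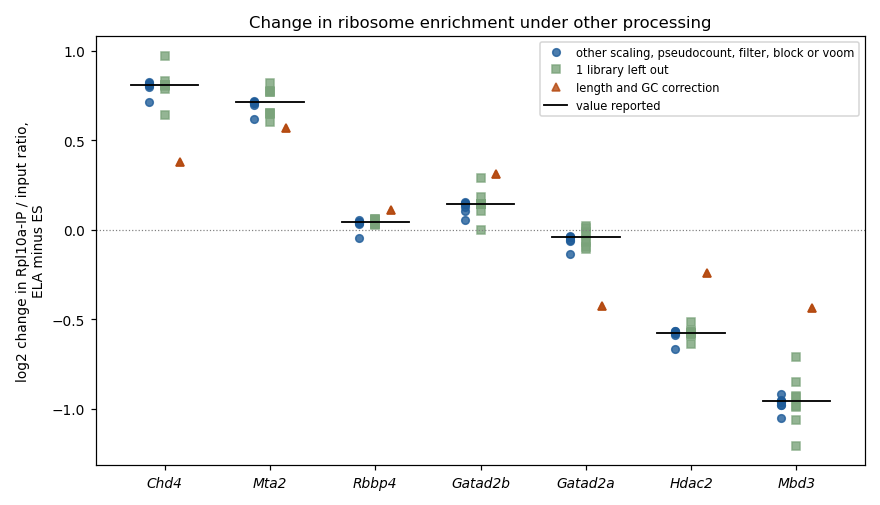
Change in ribosome enrichment from ES to ELA (log2, vertical axis) for each NuRD subunit under other processing. Black lines are the values reported, circles other scaling, pseudocount, filter, block or model, squares fits without 1 library, and triangles the length and GC correction, which moves Chd4 to 0.38, Mbd3 to −0.44 and Gatad2a to −0.43.

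The transcripts that followed Chd4 most closely over the 8 libraries were not NuRD subunits. By Pearson's r of log2 levels they were Mtmr4 (0.994), Med12 (0.994), Fryl (0.992), Ap3b1 (0.990) and Cdk13 (0.989). Among subunits r with Chd4 was 0.53 for Mta2, 0.49 for Rbbp4 and 0.38 for Hdac2. It was −0.72 for Gatad2b, −0.85 for Mbd3 and −0.92 for Gatad2a. The libraries form 4 groups of 2, so these r describe the order of group levels.

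Genes around NuRD were read from lists, beside 28.4% of all genes called higher and 27.7% called lower in the change in ribosome enrichment (56.2% in all), and 50.4% called after length and GC correction. Of 23 paralogs and partners, 12 were in the table, and in ribosome enrichment 4 rose and 3 fell from ES to ELA, with a median of 0.08 against 0.01 over all genes, so 7 of 12 were called, near the share of all genes. Chd3 is the paralog of Chd4 that replaces it in some NuRD particles. Chd3 rose by 0.53 ± 0.19 on the log2 scale (limma adjusted p = 0.0198), and Zfp687 by 0.82 ± 0.19 (limma adjusted p = 0.000349). The ELA inputs held 15 and 32 reads of Chd3, and 13 and 29 of Zfp687. Counting error alone can exceed these SEs. Pwwp2a, a chromatin reader that binds an Mta1 module of NuRD, fell by 0.84 ± 0.16 (limma adjusted p = 5.47e-05), and Zfp219 by 0.79 ± 0.19 (limma adjusted p = 0.000840). After length and GC correction 1 of the 12 rose and 6 fell, with a median of −0.13.

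Of 31 genes of the other class I deacetylase complexes, 11 were in the table, and 1 rose and 5 fell in ribosome enrichment (median −0.36), beside 28.4% and 27.7% of all genes. Ing2, a histone methylation reader of the Sin3 complex, fell by 1.11 ± 0.18 on the log2 scale (limma adjusted p = 4.99e-06), and Mier1, an Hdac1 and Hdac2 scaffold, by 0.88 ± 0.16 (limma adjusted p = 2.74e-05). Brms1, a Sin3 subunit, fell by 0.80 ± 0.22 (limma adjusted p = 0.00307). Its ELA inputs rested on 7 and 19 reads, where counting error alone can exceed that SE. Ogt, the transferase of O-linked sugar, rose by 0.72 ± 0.16 (limma adjusted p = 0.000229). With the length and GC correction, 1 rose and 6 fell (median −0.39).

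Of 15 genes of other complexes that hold Rbbp4 or Rbbp7, 9 were in the table. Ezh1, a histone methyltransferase of PRC2, rose by 0.93 ± 0.17 in ribosome enrichment (limma adjusted p = 3.02e-05). Mtf2, a PRC2 partner, fell by 0.43 ± 0.14 (limma adjusted p = 0.0118), and the other 7 were not called (median of the 9, 0.11). After length and GC correction 3 of the 9 rose and 1 fell, with a median of 0.16.

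Of 21 other ATP-dependent remodellers, 12 were in the table, and 7 rose and 0 fell in ribosome enrichment (median 0.70 against 0.01 over all genes, of which 28.4% rose and 27.7% fell). Those with the largest changes were Ep400, at 1.38 ± 0.16 on the log2 scale (limma adjusted p = 1.29e-08), Shprh, at 1.06 ± 0.16 (limma adjusted p = 7.35e-07), Chd9, at 0.95 ± 0.15 (limma adjusted p = 4.19e-06), and Hltf, at 0.90 ± 0.16 (limma adjusted p = 1.31e-05). After length and GC correction 5 rose and 1 fell, with a median of 0.29. Of the 6 naive genes, 4 fell in ribosome enrichment (Tdgf1, Nanog, Tfcp2l1 and Klf4) and 0 rose, with a median of −0.90 over the 6. After length and GC correction 3 of the 5 that could be corrected fell, with a median of −0.89.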

How the data were processed

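RNA-seq was analysed in 8 libraries of 4 groups. The authors mapped reads to the mm10 transcriptome with TopHat2, leaving out repeats, counted them per gene with htseq-count and divided counts by DESeq2 size factors; the deposited per-library values are this normalised count signal. Versions are not given in the sources used here. Columns named Ribo were read as Rpl10a-IP of that stage and number. The table also holds 26 other columns (means, SDs, ratios and fold changes), which were not used, and 0 per-sample columns of no sample here. Control immunoprecipitations were not analysed here.

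The deposited genes had been filtered. In the file, the larger mean input value was at least 50.02, and the SD of the 2 ratios was at most 20.0% of their mean in ES and in ELA. This filter makes adjusted p-values too small and calls too many.

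Whole reads were read back for 100% of values (tolerance 1e-06 reads) and divided by trimmed-mean-of-M-values (TMM) factors over all 8 libraries. In limma 3.58.1 under R 4.3.3, log2(normalised count + 1) was modelled with a trended prior and 1 coefficient per group, and p-values were adjusted by Benjamini-Hochberg over 3160 genes, with a threshold of 0.05. Fits of ribosome enrichment in ES and of ribosome-bound RNA used 7 libraries, without ELA input 1; the others used 8. The prior degrees of freedom were infinite in the former, so only variance pooled over genes entered their p-values, and 30.7 in the latter. Lengths and GC content came from the longest GENCODE transcript of 94.3% of genes, and the correction was a loess fit (span 0.5).

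Named genes were the subunits, at most 4 called genes per list with the largest change in ribosome enrichment, and the 5 genes most like Chd4. The subunits and lists were chosen with earlier results of these data known.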

Additional observations from a re-analysis of the deposited data

Results flagged for a closer look

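Ribosome enrichment differed between ES and ELA for 4 NuRD subunits by the test of stage and fraction together in limma. The log2 difference, ELA minus ES, was 0.81 for Chd4, 0.71 for Mta2, −0.58 for Hdac2 and −0.96 for Mbd3. The correction for transcript length and GC content took them to 0.38, 0.57, −0.24 and −0.44. With it Hdac2 was no longer called (limma adjusted p = 0.140), and Gatad2a, at −0.43, was (limma adjusted p = 0.0142).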

How the results depend on the processing

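The number of subunits called stayed within 1.5 times of the value reported in all 5 comparisons and all settings run. For single subunits, 592 values kept direction and side of the threshold, of which 178 came from settings that left the log2 value itself as reported (such as the 10 CPM filter, which took out no gene). A further 11 gained a call, 18 lost one and 23 changed sign. The planned edgeR and DESeq2 fits were not run; voom was the fit on reads read back. The size factors implied by the deposited values multiplied to 1.05 for input and 1.03 for Rpl10a-IP, which factors set within each fraction would give, and moved the median of all genes by 4.07 in ES and 4.06 in ELA enrichment, and by −0.11 in ribosome-bound RNA. Under them enrichment in ES was 3.60 for Gatad2a, 3.08 for Gatad2b and 3.41 for Mbd3, and in ELA 3.54 for Gatad2a, 3.21 for Gatad2b, 3.99 for Hdac2 and 2.43 for Mbd3. With that median taken out, a setting chosen after seeing the data, no subunit changed sign. The deposited factors also gave −0.070 for Rbbp4 in ribosome-bound RNA. With the length and GC correction, with and without the block, Hdac2 enrichment in ELA was 0.15, and ribosome-bound changes were 0.13 for Gatad2b, 0.13 for Hdac2 and −0.043 for Rbbp4. Total RNA of Rbbp4 changed by 0.060 with total reads and 0.0053 with voom. Leaving out 1 library gave it values from −0.019 to 0.015, and gave the change in enrichment of Gatad2a values from −0.11 to 0.023. The change in enrichment of Rbbp4 was −0.048 with total reads. The causes were not tested.

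Samples share replicate numbers. The study's methods drew input from the lysate used for the immunoprecipitation, but the titles do not say that a number marks a lysate. Deviations of same-numbered libraries correlated at 0.17 between input and Rpl10a-IP in ES and 0.50 in ELA, and between −0.02 and 0.17 across stages, so the block was kept as an alternative. The filter on the spread of the 2 same-numbered ratios favours genes whose input and Rpl10a-IP deviate together, so the correlations within a stage are in part set by it and do not show pairing. The block changed 1 call, Mta2 enrichment in ES (limma adjusted p = 0.0535 to 0.0409). With the replicate block, 6 subunits were called in ES enrichment, 6 in ELA enrichment, 6 in total RNA, 5 in ribosome-bound RNA and 4 in the change in enrichment. Over all genes, enrichment in ES had 1247 calls with 7 libraries and 762 with 8. The ELA inputs, with medians of 26 and 66 reads per gene, set the precision of each value that uses them. For genes with few reads there, such as Gatad2b, Mbd3, Brms1, Chd3, Zfp687 and Nanog, counting error alone can exceed the SE given. Their intervals are then too narrow and their adjusted p-values too small.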
